A study of Homo sapiens with 6 samples.

Results

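The kinases that phosphorylate SR proteins and the TRA2 splicing factors were followed in MDA-MB-231 cells after silencing of SAM68. The genes are CLK1, CLK2, CLK3, CLK4, SRPK1, SRPK2, PRPF4B, TRA2A and TRA2B. They were chosen by gene symbol and not by their values, although earlier results of these data were known. Each of the 9 matched a single locus of the deposited table, which lists 74852 loci, and all 9 were among the 18849 loci tested. Every member locus carries 1 gene symbol only.

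MDA-MB-231 is an established line of triple-negative breast cancer cells of human origin. Cells received non-targeting siRNAs (si-CTRL) or siRNAs against SAM68 (si-SAM68), each as a pool of 4 sequences. By the labels they were transfected in 2 rounds and harvested 24 h after the later one, whereas the methods of the paper give another interval. There are 3 libraries of polyadenylated RNA per group, all from this line, and the silencing was transient. The methods of the paper speak of cells harvested in triplicate, and neither they nor the labels say whether the 3 were separate transfections, so the p-values measure the spread between these libraries, which may be technical. Whether loss of SAM68, an RNA-binding protein, changes the RNA level of the kinases that act on other splicing factors is the question the comparison can address.

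SR proteins are splicing factors whose stretches of alternating arginine and serine are phosphorylated on many serines. In the usual picture SRPK kinases act on them in the cytoplasm and promote their import, CLK kinases act in the nucleus and release them from nuclear speckles, and PRPF4B acts within the assembling spliceosome. TRA2A and TRA2B carry similar arginine- and serine-rich stretches and bind purine-rich exonic enhancers. Several of these genes are known to control their own output through alternative splicing, in CLK1 and CLK4 by exon skipping and introns kept in nuclear RNA, and in the TRA2 genes by exons that bring a premature stop codon. The deposited values add up all RNAs of a locus, so that a switch between isoforms at an equal total is not seen in them.

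The 4 siRNAs of the SAM68 pool are shown because they are the agent that separates the groups. Written as the strand that has the sequence of the target RNA, each of the 4 was found in the coding part of KHDRBS1, which encodes SAM68, in the GENCODE transcripts. The capitals mark the 7 bases that pair with positions 2 to 8 of the guide strand, its seed.
siSAM68_1: gcacccauaugGACGUUAu
siSAM68_2: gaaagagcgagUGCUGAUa
siSAM68_3: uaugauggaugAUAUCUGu
siSAM68_4: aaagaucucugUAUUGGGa

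Of the members, SRPK1, PRPF4B and TRA2A hold such a 7-base match in the longest annotated 3'UTR, and in each of them it is the match of siSAM68_4. The sites are printed with 8 bases on either side, with the match in capitals, because they are the only ones in the longest annotated 3'UTRs of the 9 genes. They lie in the 3'UTR on the coding strand, on GRCh38 at chr6:35833776-35833798 (SRPK1, minus strand), chr6:4060910-4060932 (PRPF4B, plus strand) and chr7:23504865-23504887 (TRA2A, minus strand).
SRPK1: agtgaggcTATTGGGtaaccacc
PRPF4B: agtagtaaTATTGGGtggttgat
TRA2A: aattttggTATTGGGacagtgga
Among 13330 tested genes with an annotated 3'UTR, 28.7% hold at least 1 match of the SAM68 pool and 54.6% at least 1 match of the control pool. The control pool has matches in 5 members, SRPK1, SRPK2, PRPF4B, TRA2A and TRA2B. In TRA2A the site is in the 3'UTR of 4 of 4 coding transcripts, in SRPK1 of 2 of 2 and in PRPF4B of the 1 transcript listed.

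The reads on all loci were between 52625492 and 82568487 per library. A library of each group stands apart. In si-SAM68 replicate 2 a precursor rRNA locus took 15.1% of the reads, against 1.83% to 3.17% in the others. Depth was lowest in si-CTRL replicate 1, and its counts differed from those of the other si-CTRL libraries with a chi-square of 75.3 and 79.1 for each degree of freedom, where sampling alone gives about 1, against 12.6 between replicates 2 and 3. By this measure si-SAM68 replicate 2 differed more, with 386 and 388 from the other si-SAM68 libraries, against 20.3 between replicates 1 and 3. The measure takes in the precursor rRNA locus and was not computed without it. It therefore does not rank these libraries on the other loci. The result of each member is given also without si-CTRL replicate 1, and without other libraries where these move it. The line was checked by its markers. In si-CTRL cells the mean normalized read count was 157264 for VIM and 54108 for CD44, which mark mesenchymal cells, and 1.61 for CDH1 and 2.44 for EPCAM, which mark epithelial cells. The receptor genes PGR, listed at 0 in every library, and ESR1, at 8.22 in the higher of its 2 loci, were near or at 0, ERBB2 was at 2822, and the leukocyte gene PTPRC and the endothelial gene PECAM1 were at 7.25 and 13.7.

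KHDRBS1 was silenced in each si-SAM68 library. Its normalized read count, the number of reads divided by the size factor of the library, was 15660.4, 14483 and 14737 in the si-CTRL libraries and 583, 602 and 670.2 in those of si-SAM68, each in the order of the replicate numbers, which is kept for the values below. On the log2 scale the difference was -4.60 with a standard error of 0.083 (adjusted p = 2.13e-09, limma). The groups were far apart, and the fitted level differed by -95.9%.

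None of the 9 genes changed between si-SAM68 and si-CTRL cells at an adjusted p-value under 0.05 (limma with Benjamini-Hochberg adjustment over all loci), whereas 10.7% of all loci tested did. With edgeR and with DESeq2 the count was also 0 of 9. That share of 9 genes is about 1 gene, so that a count of 0 does not set the members apart from other loci. No member passed the thresholds of the paper either, a 1.5-fold change together with p at or under 0.05 before adjustment, which 7.67% of loci passed. Before adjustment, 1 member, TRA2A, had p under 0.05, as did 27.0% of loci. The same count was 1 with edgeR and 2 with DESeq2, for which the share of all loci before adjustment was not computed. At an adjusted p-value under 0.05, edgeR called 2026 and DESeq2 2789 loci, against 2017 with limma. In the fit, 6 members were lower and 3 higher in si-SAM68 cells, with log2 fold changes from -0.28 (CLK3) to 0.10 (CLK4). The median was -0.08, and over all loci it was 0.01. Without si-CTRL replicate 1 the median of the members was -0.02, with 5 members lower and 4 higher. In cultures of 1 line, a change in RNA per cell and a change in the mixture of cell states cannot be told apart.

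The 95% intervals bound how large a change could have been missed. For 8 of the 9 members the interval lay within a 1.5-fold change either way, that is within 0.58 on the log2 scale. CLK3 was the exception, with an interval from -0.60 to 0.04.

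**Figure D1:**
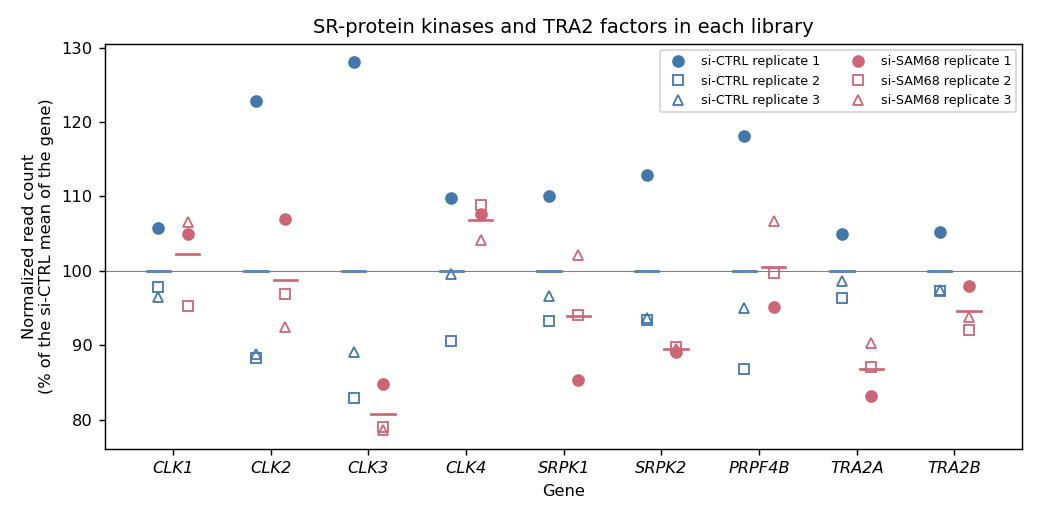
Normalized read count of each gene (x axis) in each library, as a percentage of the mean of the si-CTRL libraries of that gene (y axis). Blue marks are si-CTRL and red marks si-SAM68, circles, squares and triangles are replicates 1, 2 and 3, and bars are group means. The filled blue circle, si-CTRL replicate 1, is the highest of the si-CTRL libraries in 9 of 9 genes.

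The coefficient of variation was larger between si-CTRL than between si-SAM68 libraries in the members other than CLK1, where it was smaller, and SRPK1, where it was 8.91% and 8.93%. Among the si-CTRL libraries, replicate 1 had the highest value in 9 of 9 members, which was so for 40.5% of all loci. Over the 6 libraries it was the highest in 8 of 9, against 27.5% of loci. Its excess over the mean of the other si-CTRL libraries, on the log2 scale, was largest in CLK3 (0.57), CLK2 (0.47) and PRPF4B (0.38) and smallest in TRA2A (0.11) and TRA2B (0.11). In every member but TRA2A this excess was larger in size than the log2 difference between the groups. The part of depth or of library preparation in them was not tested.

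Among the CLK kinases, the nuclear kinases of SR proteins, CLK1 (chromosome 2, 201717732 to 201753999 on hg19) had normalized read counts of 3588, 3318 and 3275 in si-CTRL and 3563, 3233 and 3617 in si-SAM68 libraries. The groups overlapped throughout. The means were 3394 ± 169.8 and 3471 ± 208 (SD, n = 3), with a log2 fold change of 0.03 (95% interval -0.15 to 0.21, adjusted p = 0.840, limma). It was 0.07 without si-CTRL replicate 1 and between 0.0014 and 0.08 with any library left out.

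CLK4 (chromosome 5, 178029666 to 178057616), the closest paralog of CLK1, had values of 1135, 936 and 1029 in si-CTRL and 1112, 1125 and 1076 in si-SAM68 libraries. The si-SAM68 libraries lay close together, and si-CTRL replicate 1 was above all of them. The mean went from 1033 ± 99.7 to 1104 ± 25.6, a log2 fold change of 0.10 (95% interval -0.11 to 0.31, adjusted p = 0.540, limma). It was 0.17 without si-CTRL replicate 1 (adjusted p = 0.199, limma) and 0.03 without si-CTRL replicate 2.

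CLK2 (chromosome 1, 155232660 to 155247501), a kinase also known for a role in liver metabolism, had values of 3087, 2218 and 2232 in si-CTRL and 2686, 2435 and 2325 in si-SAM68 libraries. Replicate 1 of si-CTRL lay above, and replicates 2 and 3 lay below, every si-SAM68 library. The means were thus nearly equal, 2512 ± 498 and 2482 ± 185 (log2 fold change -0.0026, 95% interval -0.29 to 0.29, adjusted p = 0.993, limma). Without si-CTRL replicate 1 the log2 fold change was 0.15 (adjusted p = 0.211, limma), and it was also above 0 without si-SAM68 replicate 2 (0.0099) or replicate 3 (0.04), so that no direction can be given for CLK2. The span of CLK2 lies inside those of SLC50A1 and SHC1 and touches that of HCN3. SLC50A1 went from between 2375 and 2795 in si-CTRL to between 1486 and 1607 in si-SAM68 libraries. SHC1 had 9938 to 13242 in si-CTRL and 10007 to 11471 in si-SAM68 libraries, and HCN3 had 176 to 211 and 190 to 242. Whether strand was used in counting is not given in the sources used here, and a part of overlapping genes in the CLK2 value was not tested.

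CLK3 (chromosome 15, 74900712 to 74937863), which is expressed in many tissues and abundant in testis, had the lowest log2 fold change of the 9. Its values were 4182, 2708 and 2911 in si-CTRL and 2770.4, 2582 and 2567 in si-SAM68 libraries. The groups overlapped, since si-SAM68 replicate 1 was above si-CTRL replicate 2. The mean went from 3267 ± 799 to 2639.8 ± 113 (log2 fold change -0.28, adjusted p = 0.241, limma). Without si-CTRL replicate 1 it was -0.09 (adjusted p = 0.442, limma), so that this library carries most of the difference. Without si-CTRL replicate 2 it was -0.40, with an unadjusted p-value of 0.0173 (adjusted p = 0.105, limma). EDC3, a gene of mRNA decapping whose span overlaps that of CLK3 by 14964 bases, had 2710 to 3346 in si-CTRL and 1962 to 1976 in si-SAM68 libraries. A locus without a symbol, which overlaps CLK3 by 355 bases, had 320 to 476 in si-CTRL and 267 to 313 in si-SAM68 libraries. A part of either in the CLK3 value was not tested.

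**Figure D2:**
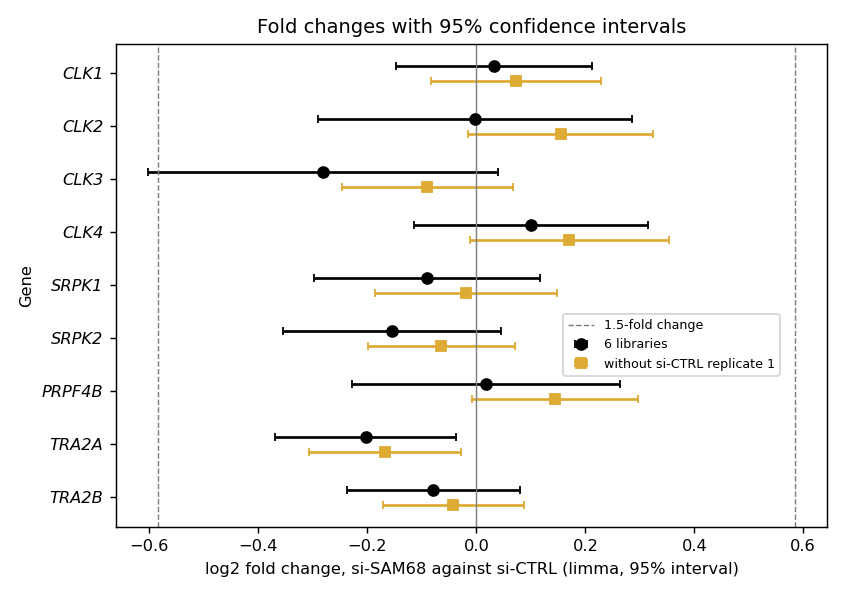
Log2 fold change of each gene in si-SAM68 against si-CTRL libraries (x axis) with the 95% interval from limma, from 6 libraries (black circles) and without si-CTRL replicate 1 (yellow squares). Dashed lines mark a 1.5-fold change. With 6 libraries the interval of TRA2A (-0.37 to -0.04) is the only one that leaves out 0, and that of CLK3 is the only one that reaches a dashed line.

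The SRPK kinases, which phosphorylate SR proteins in the cytoplasm, both had lower means after silencing. SRPK1 (chromosome 6, 35800811 to 35888957) had values of 11833, 10025 and 10380.3 in si-CTRL and 9178, 10116 and 10979 in si-SAM68 libraries, with overlap between the groups. The mean went from 10746 ± 958 to 10091 ± 901, a log2 fold change of -0.09 (95% interval -0.30 to 0.12, adjusted p = 0.572, limma). Single libraries moved it, to -0.02 without si-CTRL replicate 1 or without si-SAM68 replicate 1 and to -0.15 without si-SAM68 replicate 3.

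SRPK2 (chromosome 7, 104756822 to 105029377) had values of 4296, 3556 and 3564 in si-CTRL and 3390.0, 3416 and 3408 in si-SAM68 libraries. All si-SAM68 libraries lay below all si-CTRL libraries. They differed among themselves by a coefficient of variation of 0.387%. That is less than sampling alone gives at 3051 to 3713 reads, so that it does not measure their precision. The mean went from 3805 ± 425 to 3405 ± 13.2, a difference that did not pass the test (log2 fold change -0.15, 95% interval -0.36 to 0.05, adjusted p = 0.301, limma). Without si-CTRL replicate 1 the log2 fold change was -0.06 (adjusted p = 0.531, limma).

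PRPF4B (chromosome 6, 4021556 to 4065217), a kinase of the assembling spliceosome, had values of 14369, 10564 and 11556 in si-CTRL and 11575, 12123 and 12971 in si-SAM68 libraries. The means of 12163 ± 1974 and 12223 ± 703 were nearly equal, with a log2 fold change of 0.02 (95% interval -0.23 to 0.26, adjusted p = 0.939, limma). As in CLK2, replicate 1 of si-CTRL was above all the si-SAM68 libraries and replicates 2 and 3 were below them. Leaving that library out gave a log2 fold change of 0.14 (adjusted p = 0.194, limma), and leaving out si-CTRL replicate 2 gave -0.078, so that no direction can be given for PRPF4B either.

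TRA2A (chromosome 7, 23544403 to 23571660) came closest to a change. It had values of 5589, 5132 and 5250.5 in si-CTRL and 4429.6, 4634 and 4808 in si-SAM68 libraries, which did not overlap. The mean went from 5324 ± 237 to 4624 ± 189, a difference of -13.1% in the fitted level (log2 fold change -0.20, 95% interval -0.37 to -0.04). The unadjusted p-value was 0.0216 and the adjusted p-value 0.114 (limma), so that TRA2A did not pass over all loci. The log2 fold change of TRA2A was between -0.23 and -0.17 with any library left out, and -0.17 without si-CTRL replicate 1 (adjusted p = 0.105, limma). The unadjusted p-value was 0.0710 without si-SAM68 replicate 1 (adjusted p = 0.252, limma) and 0.0669 without si-SAM68 replicate 2 (adjusted p = 0.284, limma), so that it passed 0.05 only with both of these libraries. Of the 3 members with a seed match of siSAM68_4, TRA2A had a log2 fold change of -0.20, SRPK1 of -0.09 and PRPF4B of 0.02, and a part of the match in these values was not tested.

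TRA2B (chromosome 3, 185632356 to 185655924) had values of 14156, 13096 and 13118 in si-CTRL and 13184, 12389 and 12627 in si-SAM68 libraries. One si-SAM68 library, replicate 1, lay within the si-CTRL range. The mean went from 13456 ± 606 to 12733 ± 408, with a log2 fold change of -0.08 (95% interval -0.24 to 0.08, adjusted p = 0.513, limma). Without si-CTRL replicate 1 it was -0.04 (adjusted p = 0.681, limma).

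In all, 2 of the 9 members, SRPK2 and TRA2A, did not overlap between the groups, and both were lower. Of all loci, 33.9% did not overlap. The count was 5 without si-CTRL replicate 1, with SRPK2 and TRA2A lower and CLK2, CLK4 and PRPF4B higher, against 46.5% of all loci in the same libraries. None of the 9 had an adjusted p-value under 0.05 in those libraries, where 15.1% of loci did (limma), and TRA2A alone had an unadjusted p-value under 0.05. CLK3 had an unadjusted p-value of 0.0376 and an adjusted p-value of 0.153 when the replicate number entered as a block (limma).

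The members other than PRPF4B form pairs of paralogs, and the log2 ratio within each library is free of the scaling between libraries. The coding sequences were 77.1% identical over aligned bases for CLK1 and CLK4, 68.9% for CLK2 and CLK3, 67.2% for SRPK1 and SRPK2 and 65.7% for TRA2A and TRA2B. The longest run of identical bases between transcripts of a pair was 34, in CLK1 and CLK4, which is shorter than the reads of 100 bases.

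The ratio of CLK2 to CLK3 separated the groups most. On the log2 scale it was -0.44, -0.29 and -0.38 in si-CTRL and -0.045, -0.085 and -0.14 in si-SAM68 libraries. All si-SAM68 libraries were above all si-CTRL libraries, with means of -0.37 ± 0.076 and -0.09 ± 0.049 (SD, n = 3). The difference of 0.28 had p = 0.1 in a two-sided exact permutation test, the smallest p that 3 libraries against 3 allow, and 0.2 after adjustment over the 4 ratios. That test did not use a pairing by replicate number. Within the 3 pairs the ratio was higher after silencing in 3 of 3, with p = 0.25 in an exact test of the 8 sign flips, the smallest p they allow, and 0.5 after adjustment. Leaving out si-CTRL replicate 1, which set the fold change of CLK3, left a difference of 0.24, and over the 6 libraries left out in turn it was between 0.24 and 0.32. EDC3 and SLC50A1, which overlap CLK3 and CLK2, were both lower in every si-SAM68 library. The values of SHC1 and HCN3, which also overlap CLK2, were not separated between the groups. The part of these genes in the ratio was not tested.

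The ratio of TRA2A to TRA2B did not overlap either. It was -1.34, -1.35 and -1.32 in si-CTRL and -1.57, -1.42 and -1.39 in si-SAM68 libraries. The difference was -0.12, with p = 0.1 in the two-sided exact permutation test and 0.2 after adjustment, and with p = 0.25 in the exact test within pairs, where it was lower in 3 of 3. It was -0.068 without si-SAM68 replicate 1, the library with the lowest ratio, so that this library carries much of the difference.

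For CLK1 to CLK4 the difference in log2 ratio was -0.07 and for SRPK1 to SRPK2 it was 0.06, each with p = 0.6 in the two-sided exact permutation test and with overlap between the groups. For CLK1 to CLK4 the SD was 0.093 in si-CTRL and 0.12 in si-SAM68 libraries, and the difference was smaller in size than either. For SRPK1 to SRPK2 the SD was 0.040 and 0.13, and the difference lay between them. The difference for CLK1 to CLK4 was between -0.12 and -0.0046 with a library left out. That for SRPK1 to SRPK2 was 0.13 without si-SAM68 replicate 1 (p = 0.1, exact permutation test) and 0.0017 without si-SAM68 replicate 3. In the exact test within pairs p was 1 for the former and 0.5 for the latter.

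**Figure D3:**
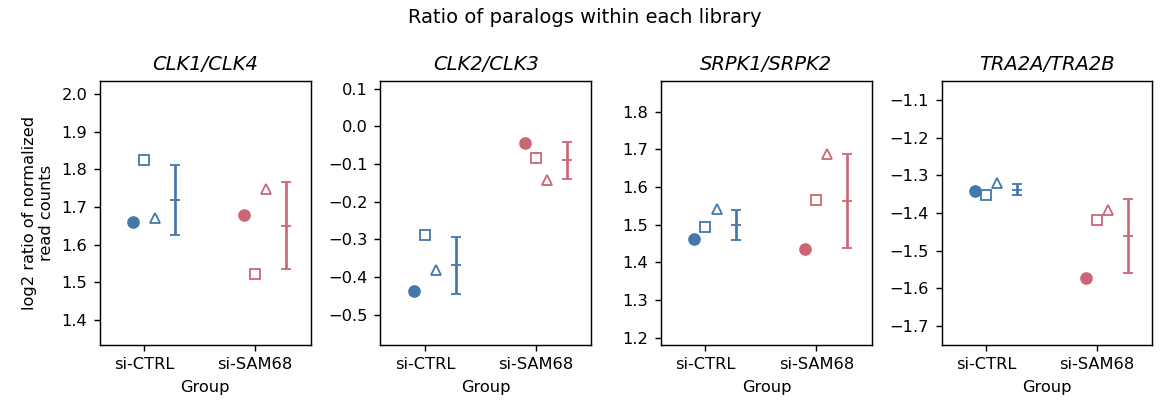
Log2 ratio of the normalized read counts of 2 paralogs (y axis, a different range in each panel but the same height) in each si-CTRL (blue) and si-SAM68 (red) library. Circles, squares and triangles are replicates 1, 2 and 3, and bars are the mean and SD. The groups do not overlap for CLK2/CLK3 and TRA2A/TRA2B and overlap for the other two.

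Levels were compared between genes only per length, as normalized read count per kb of the exons that GENCODE annotates to the gene. In si-CTRL cells TRA2B was the highest with 4411 ± 198 (SD, n = 3) per kb, above PRPF4B with 2755 ± 447, TRA2A with 2381 ± 106 and SRPK1 with 2326 ± 207. The ranges of PRPF4B, TRA2A and SRPK1 overlapped, so that their order is not resolved. Below them, CLK1 had 1373 ± 68.7, CLK3 1188 ± 290.4, CLK2 1159.9 ± 229.8 and SRPK2 948 ± 106 per kb, with overlapping ranges between each of CLK1, CLK3 and CLK2 and between CLK3, CLK2 and SRPK2.

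CLK4 was the lowest of the 9 in both groups, with 257 ± 24.8 per kb before and 275 ± 6.38 after silencing, and its range did not meet that of any other member. TRA2B stood as clearly at the other end. The place in the order was the same in both groups for TRA2B, PRPF4B, CLK1, SRPK2 and CLK4. TRA2A and SRPK1 changed places, and so did CLK3 and CLK2. The latter pair differed little in si-CTRL cells, but in si-SAM68 cells CLK2 had 1146 and CLK3 960 per kb, with no overlap of their ranges. With the length of the transcript that has the longest coding sequence in place of all exons, a choice made after the data were seen, only PRPF4B and TRA2A changed places in si-CTRL cells.

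**Figure D4:**
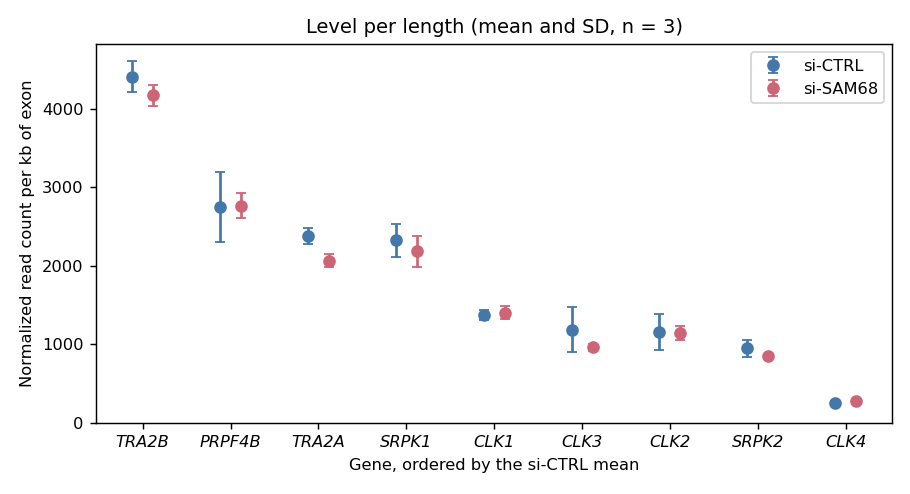
Level of each gene as normalized read count per kb of exon (y axis, from 0) in si-CTRL (blue) and si-SAM68 (red) cells, as mean and SD of 3 libraries. Genes are in the order of the si-CTRL mean, from TRA2B at 4411 to CLK4 at 257.

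The genes whose values over the 6 libraries were most like those of a member were sought among 12927 loci with a symbol and a mean of at least 50, by the Pearson correlation of log2 values. They are a description, since many loci reach a high correlation over so few libraries, between 10 (CLK1) and 335 (SRPK2) loci above 0.95. The nearest were MDH1B for CLK1, ACP2 for CLK2, TRAP1 for CLK3 and PCDHB9 for CLK4. For the other members they were WDR43 for SRPK1, SLAIN2 for SRPK2, CHORDC1 for PRPF4B, SYAP1 for TRA2A and C1QL1 for TRA2B. The correlations were between 0.988 (SRPK1) and 0.999 (TRA2A).

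The main substrates of these kinases are the SR proteins. Of the 12 SRSF genes that encode them, 11 were tested, since SRSF12 had a mean under 10. None of the 11 had an adjusted p-value under 0.05 (10.7% of all loci did) or an unadjusted p-value under 0.05 (27.0% did, limma), and none had an adjusted p-value under 0.05 with edgeR or DESeq2. Their log2 fold changes were between -0.24 and 0.16, with a median of -0.03. Replicate 1 of si-CTRL was the highest library in 3 of the 11.

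Other proteins rich in arginine and serine were listed as SR-related, and 1 of 23 genes was lower at an adjusted p-value under 0.05 and none higher, against 6.23% of loci lower and 4.47% higher. It is LUC7L2, a U1 snRNP-associated factor, whose locus is joined with FMC1, a mitochondrial assembly factor, and the value counts reads of both. The value was 7223, 4865 and 5179 in si-CTRL and 3675, 3667 and 3928 in si-SAM68 libraries (log2 fold change -0.59, adjusted p = 0.0217, limma). The groups did not overlap. The adjusted p-value was between 0.0750 and 0.0833 with any of the si-SAM68 libraries left out. The median of the list was -0.13 with all libraries and -0.01 without si-CTRL replicate 1, which was the highest library in 15 of the 23. CLASRP, a protein named for its association with CLK4, had a log2 fold change of -0.14 (adjusted p = 0.435, limma).

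Among 15 loci of other kinases that act on splicing factors or on RNA polymerase II, 2 were higher and 1 was lower at an adjusted p-value under 0.05 (limma), against 4.47% of loci higher and 6.23% lower. An unadjusted p-value under 0.05 was found in 8 of the 15, with 4 higher and 4 lower, against 27.0% of loci. HIPK3, a nuclear kinase that binds homeodomain proteins, rose from between 1651 and 1823 to between 2575 and 3026 (log2 fold change 0.70, adjusted p = 0.00203, limma). DYRK2, a kinase of the related DYRK family, rose from between 4848 and 5797 to between 6857 and 7797 (log2 fold change 0.46, adjusted p = 0.0127, limma). CDK9, the kinase of transcription elongation, fell from between 1978 and 2127 to between 1580.4 and 1767 (log2 fold change -0.31, adjusted p = 0.0427, limma).

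HIPK3 kept an adjusted p-value of at most 0.0211 with each library left out in turn. DYRK2 lost the call without si-SAM68 replicate 2 (adjusted p = 0.0563, limma) or replicate 3 (adjusted p = 0.0741, limma), and without a trend (adjusted p = 0.0630, limma). CDK9 lost it without each library other than si-CTRL replicate 1 (adjusted p between 0.0572 and 0.178, limma) and also without the filter on low values (adjusted p = 0.0614, limma), without a trend (adjusted p = 0.0970, limma) and in the replicate block (adjusted p = 0.0523, limma), where AKT1 was called instead (log2 fold change -0.29, adjusted p = 0.0495 in the block and 0.0659 without it, limma). DESeq2 called AKT1 too (adjusted p = 0.0273) and 4 of the 15 kinases in all, against 2789 of the 18849 loci tested. NEK2, the kinase the paper studies with SAM68, had a log2 fold change of 0.20 (adjusted p = 0.152, limma). The median of the list was -0.15 with all libraries and 0.02 without si-CTRL replicate 1, the highest library in 9 of the 15. SRPK3, the muscle paralog of the SRPK members, shares its locus with PLXNB3 and cannot be read on its own.

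In the list of phosphatases and nuclear import receptors of SR proteins, none of 10 genes had an adjusted p-value under 0.05 (10.7% of loci) or an unadjusted p-value under 0.05 (27.0% of loci, limma), and none had an adjusted p-value under 0.05 with edgeR or DESeq2. Log2 fold changes were between -0.19 (PPM1G) and 0.22 (the locus of PPP2CA and CDKL3), with a median of 0.11. Without si-CTRL replicate 1, the median was 0.05. That library was the lowest in 6 of the 10 and in 5341 of the 18849 loci tested. TNPO3, the import receptor of SR proteins, had a log2 fold change of 0.08.

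Factors of nonsense-mediated decay, the pathway that removes RNAs with a premature stop codon such as those of the TRA2 genes, gave the same count of 0 of 10 at an adjusted p-value under 0.05 (10.7% of loci) and at an unadjusted one (27.0% of loci, limma), and 0 at an adjusted p-value under 0.05 with edgeR and DESeq2. Their median was -0.03, and it turned to 0.06 without si-CTRL replicate 1, the highest library in 6 of the 10. SMG1, a kinase of this pathway, had the largest log2 fold change of the list, 0.32 (adjusted p = 0.198, limma), and was called in the replicate block (adjusted p = 0.0476, limma) and without si-CTRL replicate 2 (adjusted p = 0.0420, limma).

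**Figure D5:**
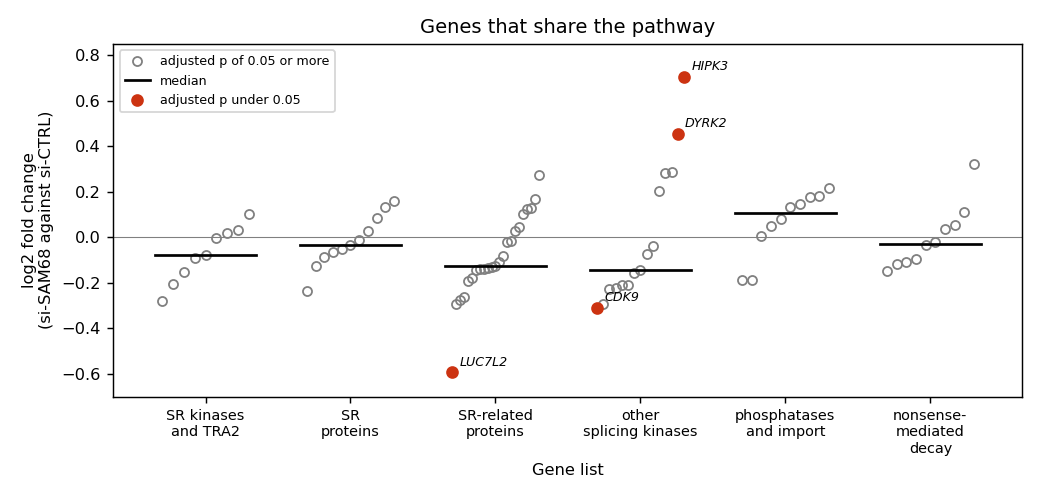
Log2 fold change (y axis) of each tested locus in the 9 genes and in 5 lists of the same pathway (x axis). Red points have an adjusted p-value under 0.05 and are named, open points do not, and bars are medians. The 9 members lie between -0.28 and 0.10, and the named points are LUC7L2, CDK9, DYRK2 and HIPK3.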

How the data were processed

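RNA of MDA-MB-231 cells, in 3 si-CTRL and 3 si-SAM68 libraries, was sequenced as single-end reads of 100 bases, and groups were taken from the sample titles. The authors deposited a normalized signal, namely reads per FAST DB locus (hg19) divided by the DESeq2 size factor of each library. Per the labels, STAR 2.4.0, SAMtools, Picard and FastQC were also used. Of 74852 loci, 41493 were at 0 in every library. Division by the smallest step gave whole reads for 100% of values (within 0.01), 52625492 to 82568487 per library, which sets the depth. Precision is given by the standard errors and 95% intervals over 3 libraries per group.

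The test was limma 3.58.1 (R 4.3.3, eBayes with a trend) on log2(value + 1) for loci with a mean of at least 10, with Benjamini-Hochberg adjustment over all loci. On this scale fold changes of genes with few reads are understated. Tests were checked on simulated counts. Ratios of paralogs were compared by exact permutation and, as an alternative chosen after the data were seen, by sign flips within pairs. edgeR 4.0.16 and DESeq2 1.42.0 were run on the recovered reads as alternatives, besides other pseudocounts, filters, scalings, variance models, a replicate block and each library left out. The labels state no pairing of libraries, and the fit reported uses none, so that pairing by number was an alternative. Deviations from the group means correlated by 0.105 to 0.231 between libraries of the same number and by -0.125 to 0.0069 otherwise. As the deviations within a group sum to 0, these values are not independent of each other, and they do not settle the pairing. Named genes are KHDRBS1, the 9 members, the cell markers, in each list at most 4 genes with an adjusted p-value under 0.05, and the nearest locus of each member. CLASRP, NEK2, AKT1, SMG1, SRPK3, PPM1G, PPP2CA, TNPO3, and the genes that overlap a member, were named after their values were seen. The members and lists were chosen with earlier results of these data known. Sequences are from GENCODE 29 (GRCh38) and the siRNA list of the study.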

Additional observations from a re-analysis of the deposited data

How the results depend on the processing

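Under 17 alternatives no member had an adjusted p-value under 0.05 (limma, edgeR or DESeq2) or passed the thresholds of the paper, and KHDRBS1 stayed between -4.66 and -4.56. Directions changed in 2 genes near 0, when a library was left out. CLK2 went from -0.0026 to between -0.084 and 0.15 and was above 0 when replicate 1 of si-CTRL or replicate 2 or 3 of si-SAM68 was left out. PRPF4B went from 0.02 to between -0.078 and 0.14 and was below 0 when replicate 2 or 3 of si-CTRL or replicate 3 of si-SAM68 was left out. The members without overlap between the groups numbered 2 to 5 with a library left out. They were 5 when replicate 1 of si-CTRL and 4 when replicate 1 of si-SAM68 was left out. Of all loci, 33.9% did not overlap with every library in and 46.5% without si-CTRL replicate 1. That share was not computed with another library left out, so the count of 4 is not a result about the members. The called genes per list, with a library left out, were 0 to 2 for SR-related proteins and 1 to 5 for other kinases. They were 0 to 1 for phosphatases and import and 0 to 1 for nonsense-mediated decay. Without si-CTRL replicate 1 they were 5 of 15 kinases and 2 of 23 SR-related genes, against 15.1% of all loci in those libraries. Without a trend in limma the counts were 0 SR-related genes and 1 kinase. The loci with an adjusted p-value under 0.05 numbered 899 without a trend, 625 to 2839 with a library left out, against 2017 as reported, and those past the thresholds of the paper 2240 without the filter and 1445 with it. The cause of these changes was not tested. The replicate block, that is the pairing by number, called 1 gene of nonsense-mediated decay and left the count of called members at 0. Among the members and the 5 lists it changed the calls of CDK9, AKT1 and SMG1 given above and no other, and over all loci it gave 1697 calls. For the ratios of paralogs the exact test within pairs gave p between 0.25 and 1. Scaling by TMM factors or quantiles kept the direction of every member. Members had 908 to 13799 reads per library, and whether depth or the number of libraries limits the detection of small changes was not tested.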
